A study of Mus musculus with 16 samples.

Results

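The 10 genes Ckap2, Prc1, Aspm, Tpx2, Anln, Ect2, Racgap1, Iqgap3, Cdc20 and Top2a, which act on the mitotic spindle and on cell separation, were described in the lung of newborn mice. They were taken by name. The names had been selected on their measured fall with oxygen in each genotype and on their difference between the genotypes in hyperoxia, so these differences are given as descriptions without a test. All 10 passed the filter on low signal, among 20166 genes that did. Whole lung of pups was homogenised at postnatal day 3 and its RNA read on a one-colour (Cy3) Agilent array, 1 array per sample. There were 4 groups of 4 arrays, 16 in all: wild type in normoxia, wild type in hyperoxia, Fgf10+/- in normoxia and Fgf10+/- in hyperoxia. Hyperoxia was 85% oxygen in a chamber from postnatal day 0 to day 3. Fgf10+/- pups are heterozygous for Fgf10, a growth factor of the lung mesenchyme that drives branching and epithelial growth. The sources used here give no allele, litter or strain. Values are log2 intensities as deposited, so a difference of 1 is a 2-fold change in signal.

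Before it divides, a cell copies its chromosomes, untangles them, and pulls them apart on a spindle of microtubules. TPX2 switches on the kinase Aurora A and seeds microtubules, ASPM gathers their minus ends at the spindle poles, and CKAP2 binds and stabilises them. CDC20 activates the anaphase-promoting complex, the ubiquitin ligase that starts chromosome separation, and topoisomerase TOP2A removes the last tangles between sister chromatids. PRC1 then bundles the microtubules of the spindle midzone, where RACGAP1, the GTPase-activating subunit of centralspindlin, recruits ECT2 to activate RhoA. Anillin (ANLN) links the resulting actomyosin ring to the membrane, and IQGAP3 is a scaffold protein of proliferating cells. The mRNAs of such genes are high only in dividing cells. In a homogenate, fewer dividing cells and less RNA per cell cannot be told apart.

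Genes of this kind are often controlled through 2 short promoter elements, the cell cycle genes homology region (CHR), which binds the DREAM and MuvB complexes, and the CCAAT box, which binds NF-Y. Promoter windows of 250 bases before the most upstream listed start were available for 9 of the 10 genes from RefSeq (GRCm38.p6); Tpx2 was not among them. The letters TTTGAA or TTCGAA, taken as a CHR, stood on either strand in 5 of 9 windows (55.6%) and in 17.5% of 27025 windows of all genes. CCAAT stood in 7 of 9 (77.8%) and in 34.5% of all, and both kinds stood together in 4 of 9 (44.4%) and in 6.23% of all. The E2F letters TTCCCGC or TTGGCGC stood in 0 of 9, and in 5.74% of all. The windows of 4 genes are shown, Cdc20 and Top2a because both hold a CHR 30 bases beyond a CCAAT box near the start, and Ckap2 and Prc1 because their arrays differed most between the genotypes in hyperoxia. Capitals mark CHR and CCAAT letters on either strand (ATTGG and TTCAAA are CCAAT and TTTGAA read from the other strand). In the letters shown, bases inside the RefSeq gene span were cut away, 10 for Top2a and 6 for Prc1. The windows lie at chr4:118437344-118437593, minus strand, for Cdc20, at chr11:99024200-99024439, minus strand, for Top2a, at chr8:22185820-22186069, minus strand, for Ckap2, and at chr7:80294201-80294444, plus strand, for Prc1.
Cdc20: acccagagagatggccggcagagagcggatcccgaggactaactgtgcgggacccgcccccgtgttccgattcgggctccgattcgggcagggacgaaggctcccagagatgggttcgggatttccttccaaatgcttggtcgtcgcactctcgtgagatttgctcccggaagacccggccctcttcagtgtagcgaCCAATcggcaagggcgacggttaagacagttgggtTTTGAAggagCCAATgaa
Top2a: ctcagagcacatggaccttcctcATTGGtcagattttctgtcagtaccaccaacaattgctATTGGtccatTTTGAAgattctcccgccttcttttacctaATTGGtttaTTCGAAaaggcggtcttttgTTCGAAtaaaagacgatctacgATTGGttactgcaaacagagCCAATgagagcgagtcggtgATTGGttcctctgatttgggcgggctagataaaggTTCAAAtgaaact
Ckap2: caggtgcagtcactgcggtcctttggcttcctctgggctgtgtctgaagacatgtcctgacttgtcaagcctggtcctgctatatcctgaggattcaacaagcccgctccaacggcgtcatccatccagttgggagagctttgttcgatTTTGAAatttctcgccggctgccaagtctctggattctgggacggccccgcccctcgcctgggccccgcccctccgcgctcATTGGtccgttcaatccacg
Prc1: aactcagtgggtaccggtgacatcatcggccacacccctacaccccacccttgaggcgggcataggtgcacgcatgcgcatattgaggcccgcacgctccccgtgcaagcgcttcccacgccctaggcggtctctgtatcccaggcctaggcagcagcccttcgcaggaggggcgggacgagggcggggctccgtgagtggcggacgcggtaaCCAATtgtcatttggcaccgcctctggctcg

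In Cdc20 the CHR began 18 bases before the start and the CCAAT box ended 49 bases before it. In Top2a the CHR nearest the start began 23 bases before it, and the CCAAT box ahead of it ended at 54 bases. Top2a held 4 CHR and 6 CCAAT matches in all. Ckap2 had a CHR at 101 bases and a CCAAT box at 20 bases, and Ect2 a CHR at 114 bases with CCAAT boxes at 96 and 55. Iqgap3 had a CHR at 19 bases and no CCAAT box, while Prc1 (37 bases) and Racgap1 (12 bases) had 1 CCAAT box and Aspm had 3. Anln held neither. The windows of Aspm and Ect2 lay wholly inside the RefSeq gene span, as did the last 49 bases of the Iqgap3 window with its CHR. Outside gene spans a CHR stood in 3 of 9 windows (Cdc20, Ckap2 and Top2a), CCAAT in 5 of 9, and both in 3 of 9; the shares over other genes were not limited in this way. A match is a run of letters and was not shown to be a working site. Of 44 windows of other spindle and cytokinesis genes, 29.5% held a CHR, 52.3% a CCAAT box, 22.7% both and 13.6% the E2F letters. Of 18 windows of DNA replication genes, a list fixed by function, 22.2% held a CHR, 72.2% a CCAAT box, 22.2% both and 38.9% the E2F letters.

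**Figure D1:**
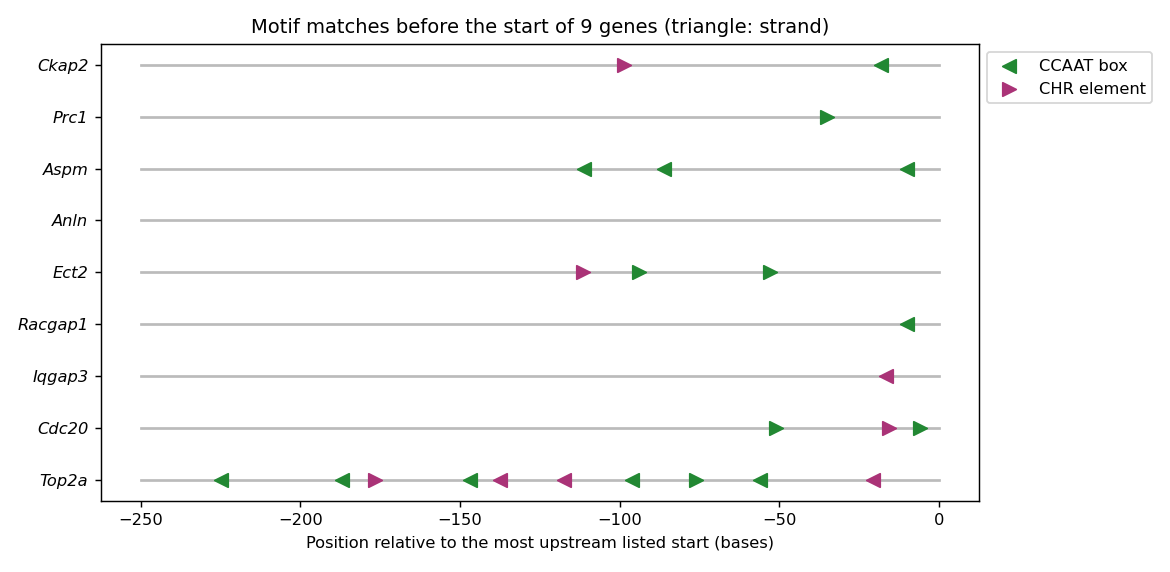
Matches of CHR letters (TTTGAA or TTCGAA) and CCAAT boxes in the 250 bases before the most upstream listed start of 9 genes; the x axis is the distance from that start in bases, and the triangle points right for the coding strand and left for the other strand. Top2a holds 4 CHR and 6 CCAAT matches, and Anln holds none.

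Across the arrays as a whole, replicates of a group correlated over all genes tested with r between 0.974 and 0.983. Fgf10, read by its brightest feature, stood at 7.83, 8.14, 7.24 and 7.97 in wild-type normoxia, at 7.88, 8.29, 8.29 and 8.66 in normoxia arrays labelled Fgf10+/-, at 7.64, 7.80, 7.90 and 8.07 in wild-type hyperoxia and at 7.39, 7.96, 7.73 and 7.48 in hyperoxia arrays labelled Fgf10+/-. The genotypes differed in Fgf10 without passing the test, in normoxia (Fgf10+/- minus wild type 0.48, SE 0.20, limma adjusted p = 0.334) and in hyperoxia (-0.21, SE 0.20, adjusted p = 0.835), so the genotypes are taken from the labels and every genotype direction rests on them. With oxygen, Fgf10 fell in Fgf10+/- (-0.64, SE 0.20, limma adjusted p = 0.0346) and stood at 0.06 (SE 0.20, adjusted p = 0.897) in wild type. The gap between these oxygen differences did not pass (-0.69, SE 0.29, limma adjusted p = 0.737). One wild-type normoxia array, replicate 4, stood apart by skeletal muscle genes (mean 8.19 against 4.73 to 5.16 in the other 3). Brown fat genes were also highest there within this group (mean 6.71 against 5.31 to 5.65). The lung markers were present: the 8 type 2 cell genes had means between 11.60 and 12.61 on every array. The labels do not say whether replicates came from separate litters, so a p-value reflects the spread of these arrays alone, which may be technical in part.

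The spindle genes were lower on all 4 hyperoxia arrays than on all 4 normoxia arrays of their own genotype, and they were higher in arrays labelled Fgf10+/- than in wild type at both oxygen levels. Ckap2 gave the widest genotype gap in hyperoxia. Its wild-type normoxia arrays read 7.29, 7.55, 7.69 and 7.89, and its wild-type hyperoxia arrays 5.65, 4.78, 4.96 and 5.43. The arrays labelled Fgf10+/- read 8.46, 8.42, 8.37 and 8.54 in normoxia and 6.38, 7.24, 7.05 and 7.11 in hyperoxia. No group overlapped another: the lowest hyperoxia array labelled Fgf10+/- lay above the highest of wild type, and the same held in normoxia. The fall with oxygen was -2.40 (SE 0.21) in wild type and -1.5 (SE 0.21) in Fgf10+/-, which left 18.9% and 35.3% of the normoxia signal.

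Tpx2, the Aurora A activator, read 7.48, 8.09, 8 and 8.63 in wild-type normoxia and 6.42, 6.19, 6.08 and 6.17 in wild-type hyperoxia. In Fgf10+/- it read 8.88, 9, 9 and 9.16 in normoxia and 7, 7.71, 7.74 and 7.98 in hyperoxia. Its 4 groups did not overlap by genotype at either oxygen level, and its wild-type hyperoxia arrays lay close together (6.21 ± 0.14, SD, n = 4). The fall was -1.84 (SE 0.22) in wild type and -1.41 (SE 0.22) in Fgf10+/-. Aspm, the spindle pole protein whose loss causes microcephaly, ran from 7.38 to 8.20 in wild-type normoxia, from 5.31 to 6.43 in wild-type hyperoxia, from 8.42 to 8.71 in Fgf10+/- normoxia and from 6.62 to 8.02 in Fgf10+/- hyperoxia. Its falls were -1.73 and -1.21 (SE 0.28 each), and the genotypes were again apart at both oxygen levels.

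The midzone bundler Prc1 kept 20.8% of its signal in wild type and 41.5% in Fgf10+/-. Its arrays read 9.61, 9.92, 10.12 and 10.36 in wild-type normoxia and 7.72, 8.02, 7.18 and 8.03 in wild-type hyperoxia. In Fgf10+/- they read 10.64, 10.57, 10.65 and 10.65 in normoxia and 8.81, 9.29, 9.50 and 9.82 in hyperoxia. Every Fgf10+/- array lay above every wild-type array of the same oxygen level. The fall was -2.26 in wild type and -1.27 in Fgf10+/- (SE 0.22 each). Racgap1, the centralspindlin subunit, spanned 8.61 to 9.16 in wild-type and 9.23 to 9.69 in Fgf10+/- normoxia, and in hyperoxia 6.64 to 7.53 and 7.34 to 8.41, where the genotypes overlapped. It fell by 1.79 in wild type and by 1.48 in Fgf10+/- on the log2 scale (SE 0.24 each).

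Ect2, the exchange factor that activates RhoA at the cleavage furrow, fell about as far in both genotypes. Its arrays read 7.66, 8.03, 8.13 and 8.14 in wild-type normoxia and 7.06, 6.76, 6.72 and 6.76 in wild-type hyperoxia. In Fgf10+/- it read 8.69, 8.77, 8.75 and 8.79 in normoxia and 6.99, 7.61, 7.80 and 7.70 in hyperoxia. In hyperoxia the lowest Fgf10+/- array lay below the highest of wild type, while in normoxia the genotypes were apart. The fall was -1.17 in wild type and -1.23 in Fgf10+/- (SE 0.16 each), so its genotype gap was 0.76 in normoxia and 0.70 in hyperoxia. Anln, the ring scaffold, spanned 9.52 to 10.23 in wild-type and 10.53 to 10.81 in Fgf10+/- normoxia, and 7.32 to 8.02 and 8.55 to 9.40 in hyperoxia. Its falls were -2.08 and -1.54 (SE 0.21 each), with no overlap of the genotypes at either level.

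Iqgap3 had the largest fall of the 10 and the widest spread. It read 7.34, 7.49, 7.82 and 8.15 in wild-type normoxia and 5.48, 5.28, 3.01 and 5.09 in wild-type hyperoxia. In Fgf10+/- it read 8.56, 8.20, 7.68 and 8.26 in normoxia and 5.17, 6.26, 6.55 and 6.60 in hyperoxia. The genotypes overlapped at both oxygen levels, and replicate 3 of wild-type hyperoxia lay under the 25th percentile of its array (3.69), where small signals are not measured well. The fall was -2.99 in wild type and -2.03 in Fgf10+/- (SE 0.47 each). Without that array the genotype gap in hyperoxia was 0.86 in place of 1.43.

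Cdc20, the anaphase activator, had the smallest fall in Fgf10+/-. It read 9.58, 9.72, 9.84 and 10.14 in wild-type normoxia and 8.72, 8.69, 8.08 and 8.49 in wild-type hyperoxia. In Fgf10+/- it read 10.44, 10.57, 10.50 and 10.63 in normoxia and 9.12, 9.86, 10.04 and 10.13 in hyperoxia. Both genotype pairs were apart, and the upper 3 hyperoxia arrays labelled Fgf10+/- lay within the range of wild-type normoxia. Cdc20 kept 40.0% of its signal in wild type (-1.32, SE 0.21) and 59.5% in Fgf10+/- (-0.75, SE 0.21). Top2a, the decatenating topoisomerase, spanned 8.14 to 8.53 in wild-type and 8.85 to 9.16 in Fgf10+/- normoxia, and 4.97 to 6.38 and 6.84 to 7.67 in hyperoxia. It kept 18.8% in wild type (-2.41, SE 0.26) and 34.2% in Fgf10+/- (-1.55, SE 0.26).

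**Figure D2:**
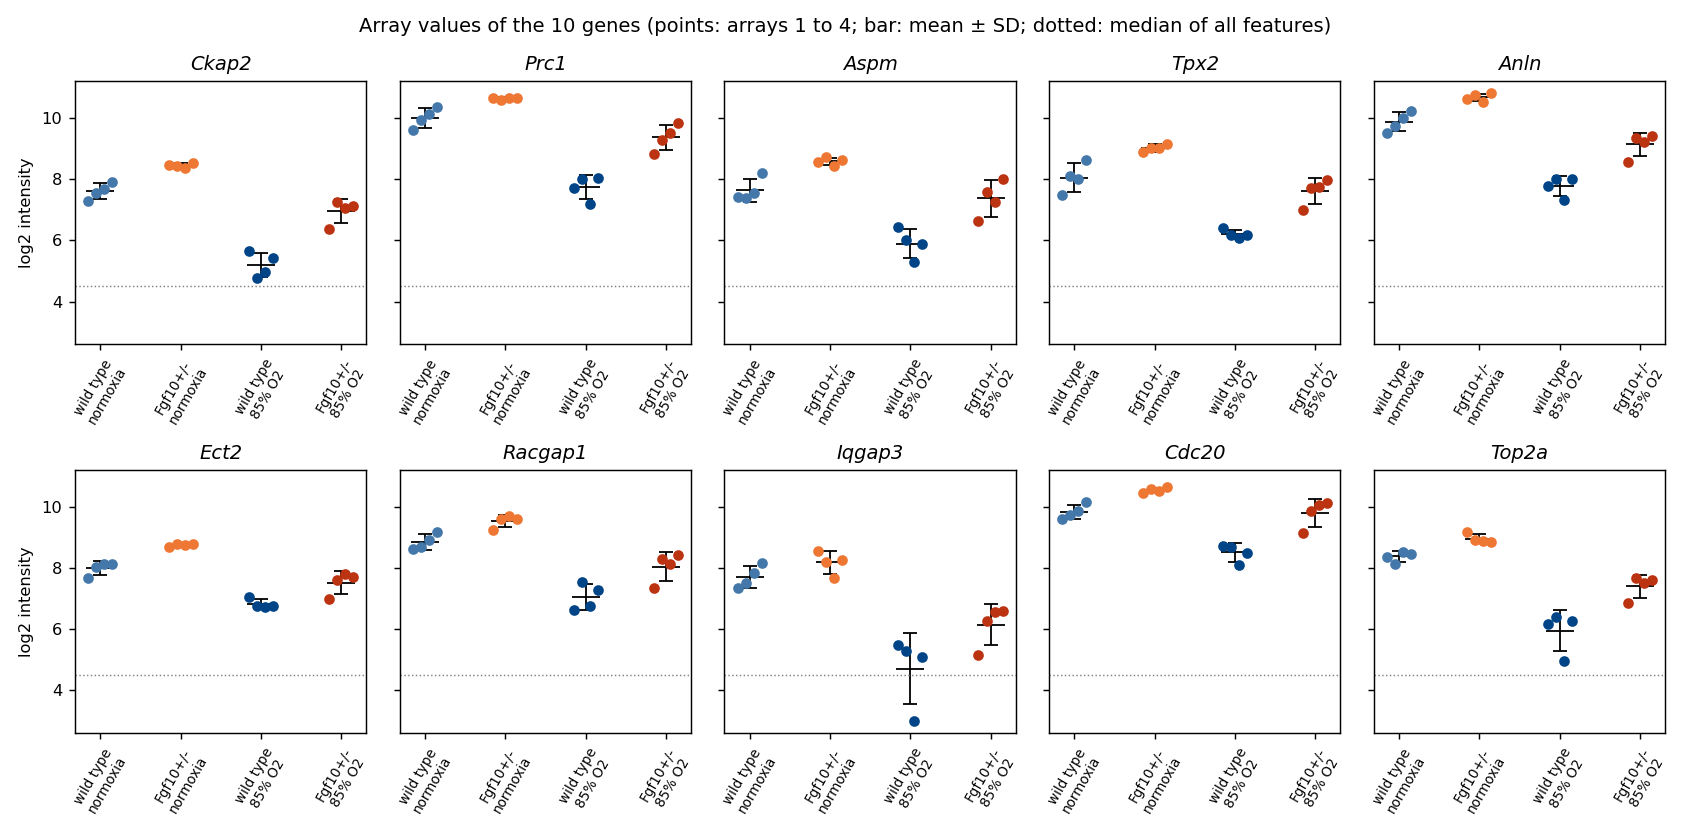
Log2 intensity (y axis) of the 10 genes on each array, in 4 groups of 4 (x axis); points are arrays, bars are the mean ± SD, and the dotted line is the median of all features (4.5). All hyperoxia points lie under the normoxia points of their genotype, and replicate 3 of wild-type hyperoxia reads 3.01 for Iqgap3.

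All 10 genes separated hyperoxia from normoxia without overlap in each genotype. Of all 20166 genes, 11.2% lay lower without overlap in wild type and 11.1% in Fgf10+/-; at an adjusted p under 0.05, limma called 19.1% of all genes in wild type and 23.8% in Fgf10+/- in either direction. Since these falls chose the genes, nothing is read from those shares. The median fall was -1.96 in wild type, from -2.99 to -1.17, and -1.45 in Fgf10+/-, from -2.03 to -0.75, against medians over all genes of 0.03 in both. The fall was larger in wild type for 9 of 10 genes, Ect2 being the exception. The difference between the falls (the genotype by oxygen interaction) had a median of 0.56, from -0.06 for Ect2 to 0.99 for Prc1 (SE 0.32) and 0.95 for Iqgap3 (SE 0.66). Over all genes, 0 of 20166 passed limma's interaction test at an adjusted p under 0.05 (0%), and 1334 (6.62%) had an unadjusted p under 0.05.

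**Figure D3:**
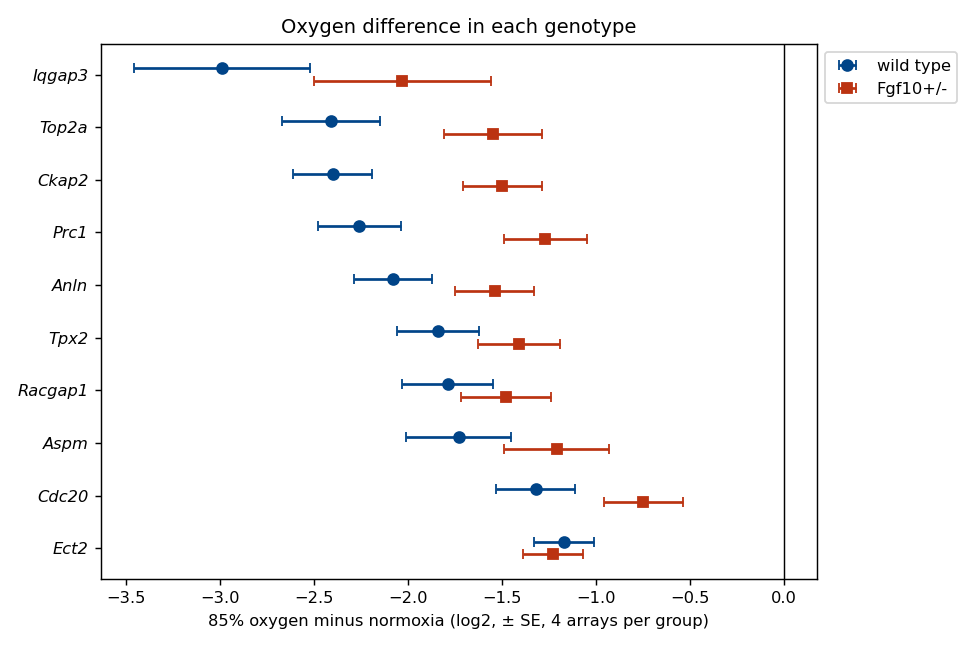
Difference between hyperoxia and normoxia in log2 intensity (x axis) for each of the 10 genes (y axis) in wild type (circles) and Fgf10+/- (squares), with the standard error from 4 arrays per group. The wild-type fall is the larger one for 9 genes, and the falls of Ect2 are -1.17 and -1.23.

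In hyperoxia the 10 genes stood higher in arrays labelled Fgf10+/- by 0.70 (Ect2) to 1.74 (Ckap2, 3.34-fold), with a median of 1.41. Prc1 followed Ckap2 at 1.62 (SE 0.22), then Aspm at 1.46, Top2a at 1.45, Iqgap3 at 1.43, Tpx2 at 1.40, Anln at 1.35, Cdc20 at 1.29 and Racgap1 at 1.00. Among all genes, ordered by this difference, they held places from 5 to 497 of 20166. The genotypes did not overlap for 7 of 10 (3.13% of all genes lay higher without overlap), which is how they were picked and no test of it. In this order the neighbours from Aspm to Cdc20 differed by less than their standard errors (0.21 to 0.47). Limma called 0.412% of all genes in either direction.

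The genotype difference in normoxia is given without a test too, because it equals the hyperoxia difference less the gap between the 2 falls, all of which chose the genes. All 10 were higher in normoxia arrays labelled Fgf10+/-, by 0.48 (Iqgap3, SE 0.47) to 0.96 (Tpx2, 1.95-fold, SE 0.22), with a median of 0.74 against -0.003 over all genes. Aspm stood 0.94 higher (SE 0.28), Ckap2 0.84 (SE 0.21), Anln 0.81 (SE 0.21), Ect2 0.76 (SE 0.16), Cdc20 0.72 (SE 0.21), Racgap1 0.69 (SE 0.24), Prc1 0.62 (SE 0.22) and Top2a 0.59 (SE 0.26). Every Fgf10+/- array lay above every wild-type array for 9 of 10, Iqgap3 being the exception. Of all genes, 3.02% lay higher without overlap, and limma called 0.719% at an adjusted p under 0.05; nothing is read from either share.

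**Figure D4:**
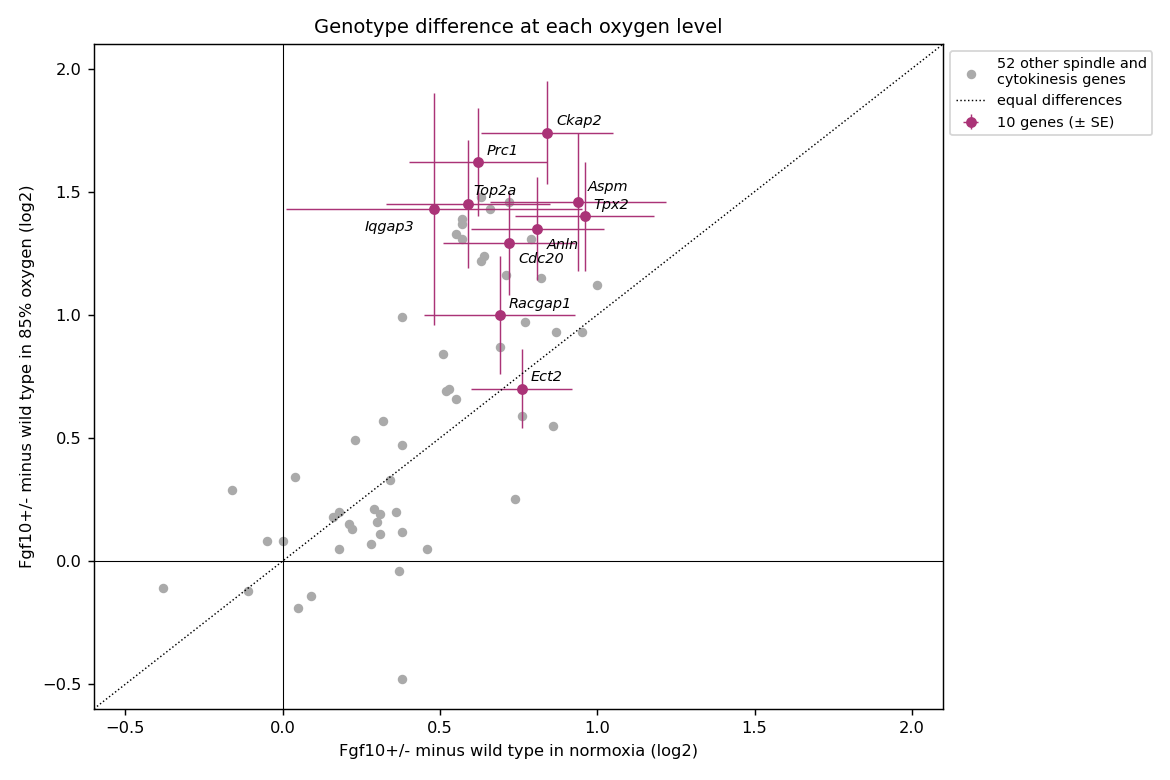
Genotype difference in log2 intensity in normoxia (x axis) against hyperoxia (y axis) for the 10 genes, with standard errors, and for 52 other spindle and cytokinesis genes (grey). Each axis uses the arrays of its own oxygen level, and the standard errors pool the spread of all 16 arrays. The 10 genes lie above 0 on both axes, and all but Ect2 lie above the dotted line of equal differences.

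The 10 genes mostly shared a high or a low array within each group but Fgf10+/- normoxia. In wild-type normoxia, replicate 4 was the highest for 9 of 10 genes and replicate 1 the lowest for 8; their mean ran from 8.29 to 8.93. In wild-type hyperoxia, replicate 3 was the lowest for 8 (mean 6.04 against 6.74 to 6.81 in the other 3). In hyperoxia arrays labelled Fgf10+/-, replicate 1 was the lowest for 10 of 10 (mean 7.28 against 8.08 to 8.28). The Fgf10+/- normoxia arrays differed least, from 9.25 to 9.39 (SD 0.06, against 0.28 to 0.44 in the other groups). Among them, replicates 1 and 3 were each the lowest for 4 of the genes, and replicate 4 was the highest for 5.

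A second feature was present for 3 of the genes on the array. For Racgap1 it gave falls of -1.28 and -1.22 and genotype gaps of 0.37 in normoxia and 0.42 in hyperoxia, smaller than those of the brighter feature. The second features of Tpx2 (mean 4.5 in wild-type normoxia) and Ect2 (4.34) lay near the array median of 4.5, and their falls were between -0.51 and -0.36. All 3 kept the direction of the brighter feature in both falls and both genotype gaps, with smaller size. The larger wild-type fall was not kept for Tpx2. Its second feature stood at -0.5 with oxygen in wild type and -0.51 in Fgf10+/-, with genotype gaps of 0.35 in normoxia and 0.34 in hyperoxia.

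Relatives of the 10 by sequence were read beside them. Iqgap1, the broadly expressed relative of Iqgap3, stood at -0.06 (SE 0.08, limma adjusted p = 0.649) with oxygen in wild type and at -0.12 (SE 0.08) in Fgf10+/-. Fzr1, which activates the anaphase-promoting complex after Cdc20, stood at -0.26 (SE 0.11, adjusted p = 0.127) and -0.03 (SE 0.11). Top2b, the relative of Top2a, fell by 0.57 and by 0.66 on the log2 scale (SE 0.08 each, adjusted p = 0.000384 and 9.39e-05). Its genotype difference in hyperoxia was 0.01 (SE 0.08, 95% interval -0.18 to 0.19). Ckap2l, a spindle protein of dividing cells, fell by 1.44 and by 1.70 (SE 0.19 each), with a genotype difference in hyperoxia of 0.38 (SE 0.19, adjusted p = 0.594). Ect2l rose with oxygen in Fgf10+/- (1.03, SE 0.20, adjusted p = 0.00164) and in wild type (0.60, adjusted p = 0.0473), the latter lost in 14 of 16 fits without 1 array (adjusted p up to 0.142). Iqgap2 lay near the array median. Of these 6 relatives, 0 passed limma's genotype test in hyperoxia or in normoxia, where 2 had an unadjusted p under 0.05 in each.

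A wider list of spindle and cytokinesis genes, set by function, had 52 of 54 members measured. In wild type 36 fell, 0 rose and 16 did not pass (limma, adjusted p under 0.05; 8.75% of all genes fell), with a median of -1.09. Kntc1, a checkpoint protein that loads dynein at kinetochores, stood at -2.09 (SE 0.14), the kinesin Kif20a of the midzone at -2.42 (SE 0.23), Birc5, a subunit of the chromosomal passenger complex, at -2.41 (SE 0.22), and separase Espl1 at -1.68 (SE 0.17). In Fgf10+/- 38 fell, 2 rose and 12 did not pass (10.7% of all genes fell), with a median of -1.02. Kntc1 (-1.92), the spindle motor Kif11 (-1.80), the centralspindlin motor Kif23 (-1.87) and Espl1 (-1.51) had the smallest p. The 2 that rose were Rhoa, the GTPase of the furrow (0.29, SE 0.08), and the centrosome gene Pcnt (0.42, SE 0.12), named after their values were seen.

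In hyperoxia 10 of these 52 genes were higher in arrays labelled Fgf10+/-, 0 were lower and 42 did not pass (limma; 0.293% of all genes were higher), with a median of 0.48. Kif20a (1.48, 2.79-fold, SE 0.23), Kif18b, a kinesin of astral microtubules (1.46, SE 0.23), Birc5 (1.39, SE 0.22) and Kif22, the chromokinesin (1.43, SE 0.23) had the smallest p, with adjusted p between 0.0169 and 0.0199. Kif18b stood at 4.00 in wild-type hyperoxia, under the array median, so its size is uncertain. This count rested on few arrays: it was 6, 2 and 4 without wild-type hyperoxia replicates 1, 3 and 4, and 0, 1 and 0 without Fgf10+/- hyperoxia replicates 2, 3 and 4. It was 0 in a fit to the 8 hyperoxia arrays alone, 20 with limma's trend and robust options and 6 with the replicate number as a block. In normoxia 1 of 52 passed, where 0.114% of all genes were higher: Kif23 (0.95, SE 0.20, adjusted p = 0.0465). In all, 47 of 52 lay above 0 and the median was 0.38; the call for Kif23 held in 5 of 16 fits without 1 array (adjusted p up to 0.153). At an unadjusted limma p under 0.05, 29 of 52 were higher and 1 lower in normoxia, and 26 were higher and 0 lower in hyperoxia. The interaction called 0 of 52 by limma, and 6 had an unadjusted p under 0.05.

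Other groups of cell cycle genes were read the same way. Of all genes, 8.75% fell in wild type and 10.7% in Fgf10+/-. Higher in arrays labelled Fgf10+/- were 0.293% of all genes in hyperoxia and 0.114% in normoxia. Of 22 DNA replication genes, 21 fell in each genotype (medians -0.99 and -1.06), and 0 passed the genotype test in hyperoxia (limma; 3 had an unadjusted p under 0.05), with a median of 0.24 and 22 of 22 above 0. Of 19 kinetochore and checkpoint genes, 15 fell in wild type and 18 in Fgf10+/-. In hyperoxia 3 of these were higher in arrays labelled Fgf10+/-: the centromere histone Cenpa (1.39, SE 0.22), the kinetochore motor Cenpe (1.54, SE 0.29) and Spc25 (1.38, SE 0.25), named after their values were seen. The hyperoxia median of all 19 was 0.64. The count that passed was 0 to 4 in fits without 1 array, 1 with the replicate block and 10 with the trend and robust options. In normoxia 1 passed, the scaffold Knl1 (0.98, SE 0.17, adjusted p = 0.0195), also named after its value was seen, and the count was 0 to 3 without 1 array. The normoxia median of the 19 genes was 0.57, and 18 lay above 0. At an unadjusted limma p under 0.05, 16 of 19 were higher in normoxia and 12 in hyperoxia, and 0 were lower. Whether these lists differ from the 10 genes was not tested.

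Of 25 regulators of mitotic transcription, 14 passed limma's test with oxygen in each genotype and 11 did not. Foxm1, the activator of late cell cycle genes, fell by 1.38 in wild type and by 1.07 in Fgf10+/- (SE 0.20 each, limma adjusted p = 0.00036 and 0.00155). Its genotype difference in hyperoxia was 0.75 (SE 0.20, adjusted p = 0.187), with the 4 arrays of each genotype apart (5.95 to 6.69 against 6.72 to 7.38). Mybl2, its partner in the MuvB complex, fell by 0.94 and by 1.16 (SE 0.14 each), and E2f8, a repressor of the E2F family, by 1.5 and by 1.35 (SE 0.20 each). E2f7 stood at -1.25 (SE 0.18) in wild type and -1.05 (SE 0.18) in Fgf10+/-, and E2f3 at -0.45 and -0.95 (SE 0.10 each). Lin9, a core MuvB subunit, fell by 0.58 in wild type (SE 0.18, adjusted p = 0.0358, lost in 6 of 16 fits without 1 array, up to 0.107) and by 0.92 in Fgf10+/-. With the mean of its features Lin9 gave -0.17 and -0.50, and both calls were lost. Cdkn1a, the kinase inhibitor p21 that leads to DREAM repression, rose by 1.90 in wild type and by 2.46 in Fgf10+/- (SE 0.13 each). Its genotype difference in hyperoxia was 0.45 (SE 0.13, adjusted p = 0.214), from 9.84 to 10.09 in wild type and from 10.24 to 10.55 in Fgf10+/-. Rbl2, the DREAM pocket protein p130, rose in wild type (0.85, SE 0.22, adjusted p = 0.0131) and stood at 0.23 (SE 0.22) in Fgf10+/-; the repressor E2f4 stood at 0.23 and 0.47 (SE 0.24 each) and did not pass. Myb rose by 0.82 and by 1.08 (SE 0.18 each). The NF-Y subunits, named after their values were seen, did not move together. Nfya stood at 0.01 in wild type and -0.75 in Fgf10+/- (SE 0.16 each, adjusted p = 0.978 and 0.00291). Nfyb stood at -0.06 and -0.03 (SE 0.12 each), and Nfyc rose by 0.41 and by 0.39 (SE 0.08 each). Their genotype differences in hyperoxia were -0.36 (Nfya), 0.12 (Nfyb) and -0.13 (Nfyc). Over the list, 9 fell and 5 rose in wild type, where 8.75% of all genes fell and 10.3% rose. In Fgf10+/- 10 fell and 4 rose, where 10.7% of all genes fell and 13% rose. On this list 0 passed the limma genotype test in hyperoxia or normoxia, where 7 and 10 had an unadjusted p under 0.05. With the mean of features, and with the trend and robust options, 1 passed in hyperoxia.

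Genes whose pattern was most like the mean of the 10 were looked for by the root mean square difference over 16 arrays, each gene centred on its own mean. The 5 nearest were the mitotic kinase Plk1 (0.142), cyclin Ccna2 (0.145), the proliferation marker Mki67 (0.146), Aurora A (Aurka, 0.148) and Cdca8, the passenger complex subunit borealin (0.151). Of the 10 themselves, Anln was nearest to their mean (0.101) and Iqgap3 farthest (0.568, place 165 of 20166). Mki67 had group means of 11.62, 12.24, 9.65 and 10.73 in wild-type normoxia, Fgf10+/- normoxia, wild-type hyperoxia and Fgf10+/- hyperoxia.

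Markers of other cells were read beside these differences. Type 2 epithelial genes moved with genotype: 8 of 8 were lower in arrays labelled Fgf10+/- at both oxygen levels, 6 passing in normoxia and 4 in hyperoxia (Slc34a2, Lamp3, Abca3 and Etv5, named after their values were seen). Of all genes, 0.605% were lower in normoxia and 0.119% in hyperoxia. Without 1 array the counts were 4 to 6 in normoxia and 0 to 3 in hyperoxia. In fits to the compared groups alone both were 0, and with the replicate block the hyperoxia count was 0. Their summed level (log2) ran from 16.03 to 16.19 in wild-type and from 15.51 to 15.69 in Fgf10+/- normoxia, and from 16.12 to 16.24 and from 15.86 to 16.07 in hyperoxia. Their part in the genotype difference of the spindle genes was not tested. Of 11 thymus and lymphoid, 8 erythroid, 10 skeletal muscle, 8 macrophage, 8 endothelial and 8 fibroblast genes, 0 passed limma's genotype test at either oxygen level; at an unadjusted p under 0.05, the fibroblast list had 4 higher in normoxia and 2 in hyperoxia, and each other list had at most 3. The thymus and lymphoid list, whose summed level ran from 8.99 to 9.36 in wild-type and from 8.94 to 9.19 in Fgf10+/- hyperoxia, lay at means of 4.77 to 5.20 on all arrays, close to the array median. Of 8 brown fat genes, 0 passed limma's genotype test at either oxygen level. At an unadjusted p under 0.05, 3 of them were lower in normoxia arrays labelled Fgf10+/- and 0 differed in hyperoxia. Without wild-type normoxia replicate 4, the array with muscle genes, the median wild-type fall of the 10 genes was -1.82 and their median genotype gap in normoxia 0.82.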

How the data were processed

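Gene expression was read in 16 lung samples on Agilent arrays. The deposited log2 intensities were used as the authors deposited them. Every array has its median near 4.5 (largest gap 0.000677), which points to quantile normalization; scale base and centring are inferred from these values, and the sources used here state no background correction, extraction software or batch. Features were named through the platform annotation, updated by RefSeq accession (29036), current symbol (2075) or unique synonym (349); 31511 features name no gene. Features with a missing value (12 named) were left out. A feature was kept above its array's 25th percentile in at least 4 arrays, and a gene was its kept feature with the highest mean.

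limma 3.58.1 (R 4.3.3) fitted 1 mean per group over all 16 arrays (12 residual and 2.129 prior degrees of freedom), with Benjamini-Hochberg adjustment over 20166 genes per comparison. Every adjusted p comes from limma. The pipeline was tested on simulated data. Same-numbered arrays of different groups had residual correlations of -0.029 to 0.087 over 24 pairs, so numbers were not taken to pair the samples. Genes and lists were chosen with earlier results of these data known. Named genes were the 10, their relatives, up to 4 genes with the smallest p per list and comparison, set regulators and the 5 nearest patterns; others are said to be named after their values were seen. Trp53 was not analysed here. The alternatives were other filters, the mean of a gene's features, a common 75th percentile, repeated quantile normalization, weighted arrays, limma's trend with robust variances, a fit to the compared groups, the replicate block and each array left out.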

Additional observations from a re-analysis of the deposited data

Results flagged for a closer look

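Some arrays lay far from the other 3 of their group, measured as the gap to the nearest array over the range of the group and set against Dixon's critical value for 4 arrays. Of 96 groups of values examined, 10 passed this limit, and chance alone would pass about 1 in 20. The values were rounded first, which matters for narrow groups, and some groups share genes and arrays. No excess is therefore read from the 10. Among the spindle genes these were Prc1 in Fgf10+/- normoxia (0.875), Ect2 in wild-type hyperoxia (0.882), Iqgap3 in wild-type hyperoxia (0.842) and Top2a in wild-type hyperoxia (0.858). For Iqgap3 and Top2a the far array was replicate 3, the lowest, and for Ect2 replicate 1, the highest. The Prc1 arrays spanned only 10.57 to 10.65. The mean of the 10 genes in wild-type hyperoxia (0.909) was also set apart by replicate 3.

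Among list means, the other spindle and cytokinesis genes passed in Fgf10+/- normoxia (0.833, within 8.75 to 8.81), skeletal muscle in wild-type normoxia (0.876, replicate 4), type 2 epithelium in Fgf10+/- normoxia (0.875, replicate 1), and fibroblast genes in wild-type hyperoxia (0.864, replicate 2) and in Fgf10+/- hyperoxia (0.857, replicate 1).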

How the results depend on the processing

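The median differences of the 10 genes kept their direction under all alternatives run. Over fits without 1 array they ranged from -2.11 to -1.82 for the wild-type fall, -1.54 to -1.23 for the Fgf10+/- fall, 0.64 to 0.82 for genotype in normoxia, 1.17 to 1.62 for genotype in hyperoxia and 0.39 to 0.78 for the interaction. The count of the 10 past an adjusted p under 0.05 in normoxia is no test, since the choice fixes that difference. It is listed by setting only, and nothing is read from it. In the main fit this count was 1, where 0.114% of all genes were higher. It was 0 with no filter, with the mean of features, with repeated quantile normalization and in a fit to the compared groups. It was 2 with the filter at the 50th percentile, 3 with array weights and 4 with trend and robust options. Without 1 array it was 0 to 3. Of 52 other spindle genes, the count higher in Fgf10+/- in normoxia was 1; it was 3 with the filter at the 50th percentile, 0 with the mean of features, 5 with trend and robust options, 4 with array weights, 0 in a fit to the compared groups, and 0 to 5 without 1 array. In hyperoxia it was 10; it was 20 with trend and robust options, 0 in a fit to the compared groups, 6 with the replicate block, and 0 to 13 without 1 array. The counts that fell with oxygen stayed at 33 to 38 in wild type and 34 to 39 in Fgf10+/-. The interaction of Ect2 (-0.06; -0.15 to 0.12 without 1 array) turned to 0.05 without wild-type normoxia replicate 1, 0.02 without wild-type hyperoxia replicate 1 and 0.12 without Fgf10+/- hyperoxia replicate 1. With the mean of features, Tpx2 fell by 1.17 in wild type and by 0.96 in Fgf10+/-, and Ect2 by 0.76 and by 0.86. The cause of these changes was not tested. The compared-groups fit has fewer samples. It also takes its spread from those groups alone, while the main fit pools the spread of all groups. Each hyperoxia SE of the main fit therefore rests partly on the normoxia arrays. The mean of the 52 other spindle genes had an SD of 0.1 in wild-type and 0.03 in Fgf10+/- normoxia, and 0.12 and 0.2 in hyperoxia. For the 10 genes it was 0.28, 0.06, 0.37 and 0.44 in the same order. The part of this spread in the lower counts was not tested. Signals near the array median, as for Iqgap3 in wild-type hyperoxia, limit its size.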
